A study of Mus musculus with 12 samples.

Results

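Noncoding RNAs detected throughout the experiment were examined in mouse liver. They were chosen by detection, as the gene probes whose accession is a noncoding RefSeq transcript (NR_) and whose signal was well above background on all 12 arrays, leaving out H19, Hnf4aos and Serpina4-ps1. This gave 315 probes of 1600 noncoding probes and of 55681 gene probes on the array. They represent 277 accessions and 276 names, of 36638 names or accessions on the array. By the RefSeq table, 180 probes read long noncoding RNAs, 97 pseudogenes, 9 small structured RNAs and 8 noncoding variants of coding genes, and the accessions of 21 probes were not in the table. Clone names (Rik or Gm) made up 190 probes. Detection on all arrays chose the probes, so an RNA that dropped below background in a group is not among them. A further 30 noncoding probes were above background on 11 arrays, and 947 were above it on none. The scaled log2 level averaged over arrays reached down to -6.23 among the detected probes and had a median of -5.54 among those above background on 11 arrays.

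Livers came from male C57BL/6NJcl mice given CE-2 chow (control) or CDAHFD, a choline-deficient, L-amino acid-defined diet with 60 kcal% fat and 0.1% methionine, used to bring on steatohepatitis. They were taken after 1, 2 or 6 weeks of feeding, at 7, 8 and 12 weeks of age, and each of the 6 groups held 2 arrays. Whether the arrays of a group hold RNA of different mice is not stated in the labels, so p-values measure only how much these arrays vary, and that variation may be technical. The diets differ in more than choline and fat, since the control is a chow and not a matched purified diet. The arrays of 1 and 2 weeks and those of 6 weeks may lie on different slides. If so, the 6-week arrays' differences from earlier arrays cannot be told apart from the slide, while each diet comparison lies within a week. All values are scaled log2 intensities (log2 signal minus the array's 75th percentile), differences are CDAHFD minus control with the standard error of the fit, and levels of different probes are not compared. A difference is said to pass, or to be called, where its Benjamini-Hochberg adjusted p in limma is under 0.05.

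Long noncoding RNAs are transcribed and often spliced and polyadenylated like messenger RNAs but encode no known protein. Some act in the nucleus, as Neat1, the scaffold of paraspeckles, and Malat1, which sits at nuclear speckles. Others, such as Airn and Kcnq1ot1, silence neighbouring genes on the allele from which they are transcribed. Many Snhg transcripts are hosts: their introns carry small nucleolar RNAs (snoRNAs), which guide the modification of ribosomal RNA, and the spliced exons are what an array probe reads. Processed and duplicated pseudogenes resemble their parent genes, so probes for them can also take up parent RNA, which was not tested here.

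Over the 3 weeks together, 198 of the 315 probes differed between diets, 74 higher and 124 lower on CDAHFD. That is 62.9% of them, where 55.9% of all 27028 probes tested were called. The excess lay among the lower probes: 39.4% of the noncoding probes were lower, against 26.7% of all probes tested and 31.1% of those above background on all 12 arrays. At 1 week 149 were called, 65 higher and 84 lower. Of all probes tested 36.4% were called then, 20.3% higher and 16.1% lower, against 20.6% and 26.7% of the noncoding probes. At 2 weeks there were 99 (30 higher, 69 lower) and at 6 weeks 102 (42 higher, 60 lower), with 31.3% (17.3% higher, 14.0% lower) and 32.8% (18.9% higher, 14.0% lower) called among all probes, so the totals at those weeks were near the background. The median difference of the noncoding probes was -0.14 in the average, -0.08 at 1 week, -0.18 at 2 weeks and -0.14 at 6 weeks, while that of all probes tested was 0.02, 0.05, -0.01 and -0.01.

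The range was wide, from -2.45 for Gm4956 to 3.99 for Meg3 in the average. Every CDAHFD array lay above every control array for 31 probes and below for 44, where 15.8% and 10.2% of all probes did so. Calls in the same direction at all 3 weeks were made for 24 probes higher (7.62%) and 28 lower (8.89%), where 10.7% and 6.04% of all probes tested were so called. The share of calls that were higher depended on the scaling. In the average it was 37.4% as reported, 19.9% after normexp background correction, 26.5% with each array's median subtracted and 21.9% where all probes set the percentile, and these shifted the median of all probes tested to -0.26, -0.12 and -0.23. By week the share was 43.6%, 30.3% and 41.2% as reported, and 21.2% to 38.4%, 15.1% to 26.0% and 17.4% to 39.1% over normexp, median centring, quantile normalization and the percentile over all probes. The share over all probes tested moved alike, from 52.3% in the average to 22.9% after normexp, 38.9% with median centring, 45.3% after quantile normalization and 30.8% where all probes set the percentile. At 1 week after normexp it was 18.0%, below the 21.2% of the noncoding probes, so the excess of lower calls was not seen there.

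**Figure D1:**
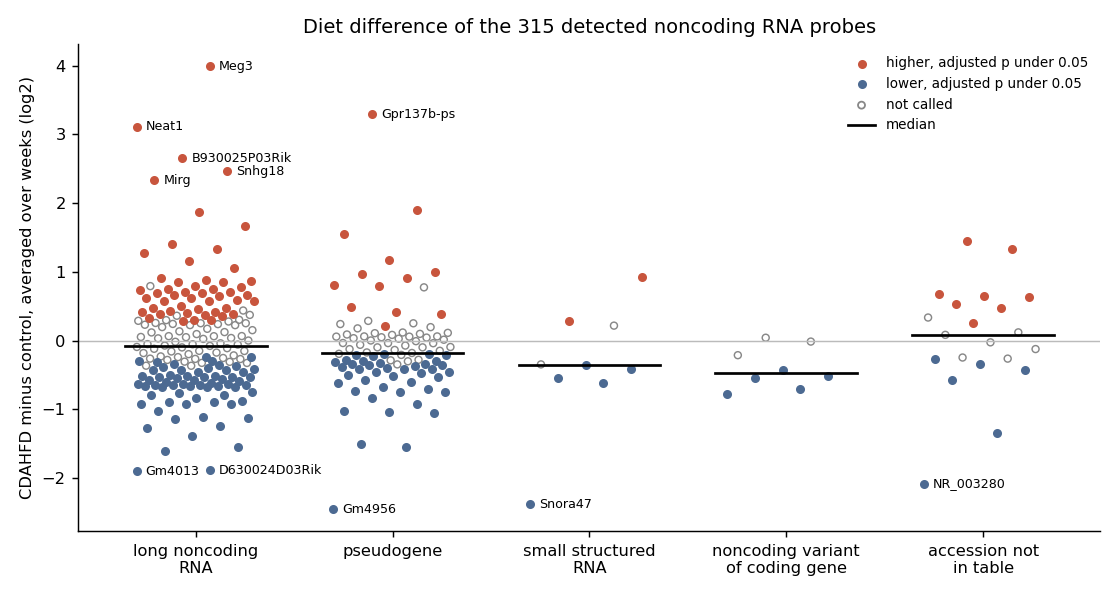
Difference between CDAHFD and control (log2, averaged over the 3 weeks) of each of the 315 detected noncoding RNA probes, by class; filled points passed an adjusted p of 0.05 and bars mark medians. Long noncoding RNAs reach highest (Meg3 at 3.99), and the lowest points are Gm4956, Snora47 and NR_003280 at -2.45, -2.38 and -2.08.

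The livers also differed in markers of their cell types. In the average all 8 hepatocyte markers were lower on CDAHFD (summed log2 level 7.67 to 8.41 on control and 7.29 to 7.59 on CDAHFD arrays) and all 3 erythroid markers were lower (4.10 to 4.58 against 2.64 to 3.21). Higher were 7 of 8 macrophage markers (2.91 to 4.02 against 4.54 to 5.39), all 8 of stellate cells and fibroblasts (3.09 to 3.46 against 4.31 to 5.19) and all 4 of proliferation (-3.55 to -2.53 against -0.65 to 0.28). Of cholangiocyte markers 2 of 4 measured were higher (-3.36 to -2.65 against -3.24 to -2.04), of endothelial markers 1 was higher and 2 lower of 5 (2.75 to 3.10 against 2.48 to 2.99), and of lymphocyte markers 2 were higher and 1 lower of 3 measured (-2.96 to -2.06 against -3.01 to -2.53). Cldn4, Cd79a and Cd8a were not measured. In whole liver, more cells of a type and more RNA per cell cannot be told apart, and the part of these markers in the differences below was not tested.

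A further feature touches the 1-week results. Of the 149 probes called at 1 week, 61 (26 higher, 35 lower) kept their call and direction when the 1-week CDAHFD arrays were set against the controls of 2 and 6 weeks, 2 were called the opposite way and 86 were not called. In all, 81 probes were called against those later controls. These counts were not made over all probes tested. Whether noncoding RNAs lost calls more often than other probes was therefore not tested. Where a 1-week difference of a noncoding RNA given below gained or lost its call against the later controls, or moved by over 1.5 times, that value stands beside it.

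Most of the imprinted and nuclear long noncoding RNAs rose. Of 27 listed genes 11 were detected, and with 1 probe a gene 9 were higher and 0 lower in the average, with a median of 0.75. Over all probes of these genes 11 of 17 were higher and 1 lower. Of all probes tested 29.2% were higher in the average, and 20.3%, 17.3% and 18.9% at 1, 2 and 6 weeks. At those weeks 7, 4 and 5 of the 11 were higher and 0 were lower, with medians of 0.83, 0.66 and 0.71. The number called higher in the average was 8 with median centring, with quantile normalization and with the percentile over all probes, and 5 after normexp, and none was called lower in any of these. Against the later controls 2 were called at 1 week. This list, like the others, was chosen with earlier results of these data known.

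Meg3 showed the largest averaged rise of any detected noncoding RNA. It is the maternally expressed transcript of the imprinted Dlk1-Dio3 region, where Mirg, a transcript that carries a cluster of microRNAs, lies downstream. On control arrays Meg3 read -5.12 and -6.07 at 1 week, -3.82 and -4.01 at 2 weeks, and -3.10 and -3.77 at 6 weeks. On CDAHFD arrays it read -1.14 and -0.77, -0.97 and -0.16, and -0.19 and 1.30. All 6 CDAHFD arrays were above all control arrays. The difference was 4.64 ± 0.53 at 1 week (24.9-fold, adjusted p = 0.000439), 3.35 ± 0.53 at 2 weeks (adjusted p = 0.00209) and 3.99 ± 0.53 at 6 weeks (adjusted p = 0.000752). Against later controls the 1-week difference was 2.72 (adjusted p = 0.00318), and with normexp it was 2.70. The probes of Meg3 did not all show this. A second probe of the same transcript, above background on 9 arrays, rose by 3.61 ± 0.23 in the average, whereas a probe of the other listed transcript, above background on 5 arrays, differed by 0.39 ± 0.29 (adjusted p = 0.265).

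Mirg rose with it, less precisely. Its control values were -5.67 and -6.55, -5.14 and -5.55, and -5.18 and -4.77 at the 3 weeks, and its CDAHFD values were -3.65 and -3.12, -3.79 and -3.14, and -4.09 and -1.08. The groups did not overlap, but replicate 2 of CDAHFD at 6 weeks stood well above its partner. The averaged difference was 2.33 ± 0.50 (5.04-fold, adjusted p = 0.0058). It was 0.93 after normexp (adjusted p = 0.0899). At 1 week it was 2.73 ± 0.87 (adjusted p = 0.0458), and that call was lost under most other settings, among them the later controls (1.78, adjusted p = 0.133), the replicate block (adjusted p = 0.052), normexp (0.63, adjusted p = 0.493) and 9 of the 12 fits that left out an array, with adjusted p from 0.0679 to 0.158.

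The start of Meg3 and the microRNAs within these genes are shown since both transcripts moved together. The window of 60 bases before to 40 after the annotated start of Meg3 (RefSeq, GRCm38.p6, chr12:109540936-109541035, plus strand) holds the letters TATAAA, in capitals, which begin 25 bases before the start.
Meg3 start: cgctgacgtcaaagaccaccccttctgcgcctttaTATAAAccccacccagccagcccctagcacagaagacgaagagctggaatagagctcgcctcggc
The letters TATAAA, read on the gene's strand only, stood within 40 bases before the start in 2.31% of 32851 start windows of all genes and in 5 of 172 windows (2.91%) of detected noncoding RNAs, which have a window for 151 genes. Within the gene bounds of Meg3 the table lists 2 microRNA genes and within those of Mirg 10, with 19 mature sequences. A mature sequence is printed with its seed, bases 2 to 8, in capitals. In Mirg, miR-453 and miR-496a-5p share a seed, and the others shown each have their own.
mmu-miR-453: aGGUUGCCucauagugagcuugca
mmu-miR-496a-5p: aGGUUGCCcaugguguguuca
mmu-miR-409-3p: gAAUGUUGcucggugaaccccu
mmu-miR-410-3p: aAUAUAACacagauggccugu
mmu-miR-770-5p of Meg3: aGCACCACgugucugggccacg
The array probes read the host transcripts, and the microRNAs themselves were not measured.

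Neat1 rose at each week, most at 1 week. Its control values were -2.12 and -2.04 at 1 week, 1.30 and 0.47 at 2 weeks and 0.24 and -0.39 at 6 weeks, so the 1-week controls stood below the later ones. Its CDAHFD values varied less, at 3.15 and 2.79, 2.36 and 2.98, and 1.95 and 2.91. The difference was 5.05 ± 0.40 at 1 week (33.1-fold, adjusted p = 6.92e-05), 1.78 ± 0.40 at 2 weeks (adjusted p = 0.0104) and 2.50 ± 0.40 at 6 weeks (adjusted p = 0.00181). Set against the later controls, the 1-week difference was 2.57 (adjusted p = 0.000919). At 2 weeks the call was lost after normexp (adjusted p = 0.0525) and without control replicate 2 (1.37, adjusted p = 0.056) or CDAHFD replicate 2 (1.48, adjusted p = 0.0722) of that week. Neat1's neighbour Frmd8 differed by 0.30 ± 0.13 in the average (adjusted p = 0.0815).

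Malat1, which lies near Neat1, followed a like course. It read -4.31 and -4.52, -1.78 and -2.30, and -3.04 and -3.33 on control arrays at the 3 weeks, and -2.12 and -2.79, -1.54 and -1.90, and -2.31 and -1.67 on CDAHFD arrays. The diets overlapped when all weeks were pooled. The difference was 1.96 ± 0.28 at 1 week (adjusted p = 0.000569), 0.33 ± 0.28 at 2 weeks (adjusted p = 0.415) and 1.20 ± 0.28 at 6 weeks (adjusted p = 0.00843). At 1 week it was 0.16 against later controls (adjusted p = 0.685).

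**Figure D2:**
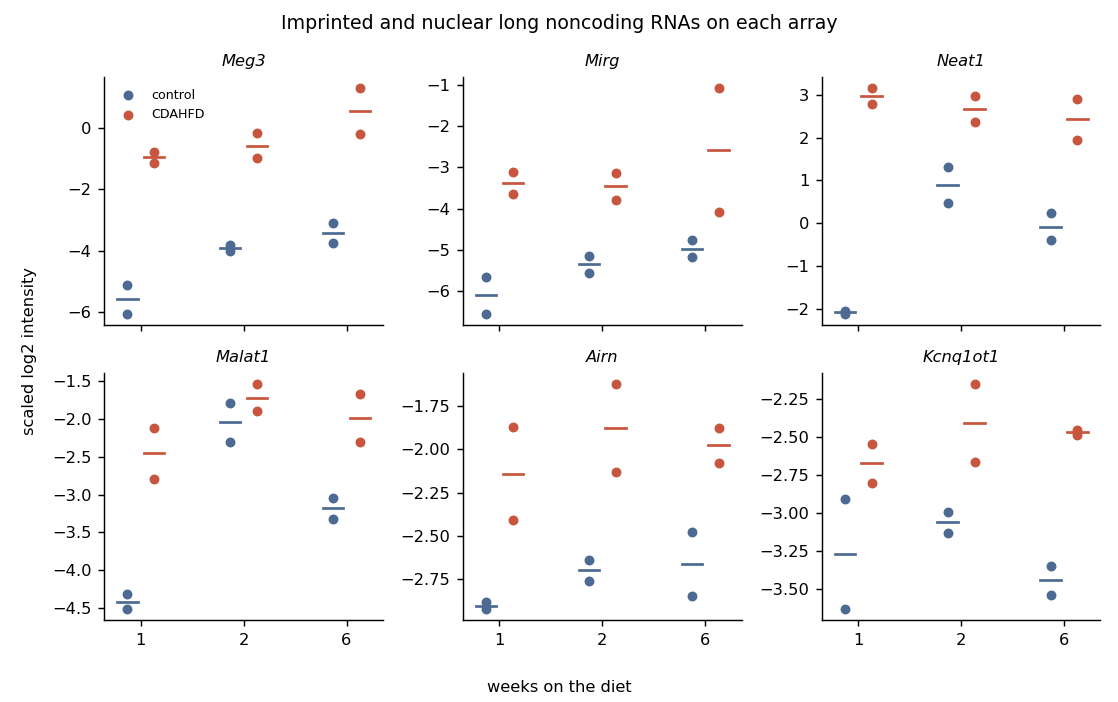
Scaled log2 intensity of 6 imprinted or nuclear long noncoding RNAs on each array (points) with the mean of each pair (bars), by weeks on the diet; blue is control and red CDAHFD, and each panel has its own vertical scale. Meg3, Mirg, Neat1, Airn and Kcnq1ot1 have all CDAHFD points above all control points. In all 6 panels the lowest control point is at 1 week, and in all but Kcnq1ot1 both 1-week control points lie below the later ones. The difference between control weeks was called only for Neat1 and Malat1.

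The silencing RNAs of imprinted clusters rose less. Airn, transcribed against Igf2r, read between -2.92 and -2.48 on the control arrays and between -2.41 and -1.62 on the CDAHFD arrays, without overlap, and differed by 0.76 ± 0.13 in the average (adjusted p = 0.000444). A further Airn probe, above background on 6 arrays, differed by 1.88 ± 0.24. Igf2r, the receptor gene that Airn silences on the paternal allele, was also higher, by 0.45 ± 0.07 (adjusted p = 0.000354). Kcnq1ot1 differed by 0.74 ± 0.14 (adjusted p = 0.000941), by 0.39 after normexp, while Kcnq1, a potassium channel gene that overlaps it, differed by -0.07 ± 0.13 (adjusted p = 0.657). A second Kcnq1ot1 probe, above background on 3 arrays, differed by 0.11 ± 0.22. Peg13, in the Trappc9 gene, differed by 0.15 ± 0.10 (adjusted p = 0.229).

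The remaining members of the list were smaller in their differences. Tug1 has 3 detected probes with averaged differences of 0.67, 0.40 and 0.24, of which the first 2 passed. The first is 0.16 after normexp (adjusted p = 0.231). By week this probe differed by 1.08, 0.35 and 0.57 and was called only at 1 week. Against later controls that value was 0.25 and not called (adjusted p = 0.35). The second probe was called at 1 week (0.80) and 6 weeks (0.50). Tug1's divergent neighbour Morc2a rose by 0.58 ± 0.08. Pvt1, which lies next to the proto-oncogene Myc, rose by 0.75 ± 0.12 on one probe and 0.39 ± 0.10 on the other, and Myc by 1.59 ± 0.47 (adjusted p = 0.0226). Pvt1 was no longer called after normexp (0.21, adjusted p = 0.146). Firre, an X-linked RNA of nuclear organisation, differed by 0.48 ± 0.16 (adjusted p = 0.0264), a call that all 4 other scalings undid, normexp with a value of -0.07 (adjusted p = 0.647), as did the removal of any of 6 single arrays. Norad, a cytoplasmic RNA that binds Pumilio proteins, had 4 probes with differences from -0.42 to 0.05, of which the lowest passed (adjusted p = 0.00398).

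The snoRNA hosts rose together at 1 week and partly thereafter. Of 22 listed hosts 12 were detected. At 1 week 10 were higher and 0 lower, with a median difference of 1.00. At 2 weeks 3 were higher, with a median of 0.42, and at 6 weeks 5, with a median of 0.38. In the average 10 were higher, with a median of 0.62, among a background of 29.2% of probes called higher. At 1 week, 5 of the 12 passed against the later controls, with a median of 0.53. The share of all probes tested that passed against those controls was not counted. The other scalings left 6 to 8 higher and 1 lower in the average. Counted by content, 16 detected genes hold a snoRNA gene within their bounds, and 12 of them were higher and 0 lower in the average, with a median of 0.51.

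Snhg18, host of Snord123, rose at all weeks, by 2.23 ± 0.21, 2.45 ± 0.21 and 2.72 ± 0.21 (adjusted p = 6.07e-06 at 6 weeks). Its 6 control values lay from -4.37 to -4.04 and its 6 CDAHFD values from -2.15 to -1.18. Against later controls the 1-week difference was 2.25. The neighbouring Sema5a, an axon guidance gene on the opposite strand, rose by 1.75 ± 0.17 in the average and was above background on 11 arrays.

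Snhg3, host of the snoRNAs Snora73a and Snora73b, read -1.65 and -1.85, -0.64 and -0.36, and -0.99 and -1.03 on control arrays. On CDAHFD arrays it read 0.13 and 0.90, 0.95 and 1.16, and 0.81 and 0.70. No CDAHFD value was below a control value, and the differences were 2.27, 1.56 and 1.76 (± 0.21; adjusted p = 4.82e-05, 0.000345 and 0.000133). Against later controls the 1-week difference was 1.27 (adjusted p = 0.00057). Its neighbour Phactr4 did not pass (0.06 ± 0.07, adjusted p = 0.476).

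Snhg16, host of Snord1a, Snord1b and Snord1c, showed the week pattern most clearly. Its controls read -3.34 and -3.85 at 1 week, -1.18 and -1.85 at 2 weeks and -1.60 and -2.08 at 6 weeks, and its CDAHFD values stayed between -1.15 and -0.85. The difference was 2.50 ± 0.24 at 1 week, 0.57 ± 0.24 at 2 weeks (adjusted p = 0.0974) and 0.94 ± 0.24 at 6 weeks (adjusted p = 0.0123), and it was 0.59 at 1 week against the later controls (adjusted p = 0.0591). A second probe, above background on 10 arrays, gave 2.94, 0.32 and 0.75.

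The other hosts were called mostly at 1 week. Snhg15, next to the macrophage and lymphocyte myosin gene Myo1g, rose at each week (0.97, 0.60 and 1.02), while Myo1g itself rose by 3.10 ± 0.14 in the average. Snhg1 rose by 1.62 ± 0.28 at 1 week (0.72 against later controls, adjusted p = 0.0468), and its divergent neighbour Slc3a2, an amino acid transporter subunit, rose by 0.47 ± 0.10 in the average. Dancr differed by 1.26 ± 0.16 at 1 week and by 0.03 against later controls, Snhg7 by 0.99 ± 0.20 and -0.07, and Snhg10 by 0.62 ± 0.16 and -0.03. Zfas1, antisense to the 5′ end of Znfx1, rose by 0.58 ± 0.13 in the average (0.33 and not called where all probes set the percentile, adjusted p = 0.0599), and Znfx1 by 0.45 ± 0.09. By week Zfas1 differed by 1.02, 0.35 and 0.36. Against later controls its 1-week value was 0.48 and not called (adjusted p = 0.109). Snhg1, Dancr, Snhg7, Snhg10 and Zfas1 passed at 1 week and at neither later week. Snhg6 passed at 6 weeks (0.57 ± 0.20, adjusted p = 0.0497) and Snhg12 at 1 week (0.74 ± 0.19, adjusted p = 0.0126), which was 0.42 and not called against later controls (adjusted p = 0.0866). Snhg6 at 1 week was 0.10 against its own controls and 0.92 against later ones (adjusted p = 0.00261). Snhg17 alone had negative differences at all weeks, with an average of -0.31 ± 0.12 (adjusted p = 0.0507). Its probe lies in a dim patch of 1-week control replicate 1, and with that patch masked the average was -0.40 (adjusted p = 0.00986). After normexp the averages of Snhg7 and Snhg10 turned to -0.03 and -0.10, neither of which passed.

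**Figure D3:**
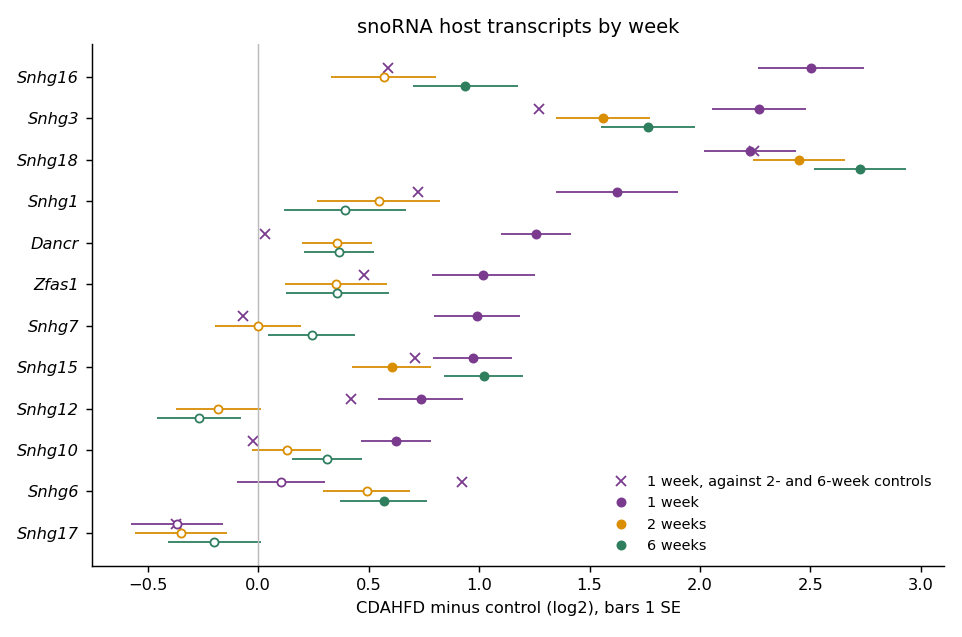
Difference between CDAHFD and control (log2, bars 1 SE of the fit) of the 12 detected snoRNA hosts at 1, 2 and 6 weeks; filled points passed an adjusted p of 0.05, and crosses set the 1-week CDAHFD arrays against the controls of 2 and 6 weeks. Snhg18 and Snhg3 stay at or above 1.27 in every comparison, whereas Snhg16, Dancr, Snhg7 and Snhg10 fall towards 0 once the later controls are used.

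The first bases of these hosts are shown because snoRNA hosts are known to belong, with ribosomal protein genes, to the class whose transcripts begin with a run of pyrimidines. RefSeq start windows (GRCm38.p6) were held for 11 of the 12 hosts. Each line gives 20 bases before and 20 after the annotated start on the gene's strand, with the longest run of C and T that reaches within 10 bases of the start in capitals.
Snhg1 (chr19:8723467-8723506, plus): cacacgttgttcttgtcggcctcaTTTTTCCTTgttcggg
Snhg3 (chr4:132353667-132353706, minus): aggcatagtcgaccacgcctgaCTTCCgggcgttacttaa
Snhg12 (chr4:132308658-132308697, plus): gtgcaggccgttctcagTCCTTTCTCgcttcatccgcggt
Snhg16 (chr11:116671640-116671679, plus): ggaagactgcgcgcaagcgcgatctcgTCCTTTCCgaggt
Snhg18 (chr15:32244643-32244682, minus): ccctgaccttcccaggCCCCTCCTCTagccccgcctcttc
Dancr (chr5:74093040-74093079, plus): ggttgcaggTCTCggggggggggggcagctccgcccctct
A run of 6 or more was present in 7 of the 12 windows of the hosts (58.3%), in 39 of 73 windows of ribosomal protein genes (53.4%) and in 29.2% of all 32851 windows. The 12 windows come from 11 hosts, since Snhg17 has a further annotated start. Such a run need not begin at the start, so these are not shares of transcripts that begin with pyrimidines. The runs of Snhg1, Snhg3 and Snhg16 began at bases 5, 3 and 8 of the transcript. Those of Snhg12 and Snhg18 spanned the start, and that of Dancr lay before it.

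The ribosomal protein genes had no settled direction. Of 80 measured, 4 (5.0%) were higher and 41 (51.2%) lower in the average (median -0.18). At 1 week 1 (1.25%) was higher and 38 (47.5%) lower (median -0.34). Of all probes tested 29.2% were higher and 26.7% lower in the average, and 20.3% and 16.1% at 1 week. The direction of the ribosomal protein genes turned with the scaling. After quantile normalization 49 were higher and 5 lower in the average, and at 1 week 24 higher and 3 lower. Against the later controls 5 were higher and 0 lower at 1 week.

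MicroRNA hosts did not move as a group. Of 20 listed transcripts 3 were detected (Dleu2, Mir22hg and Mirt2), of which 1 was lower in the average. Mirt2 was listed as a host but holds no microRNA gene within its bounds. Of all probes tested 29.2% were higher and 26.7% lower in the average. By content, 7 detected genes hold a microRNA gene: Meg3, Mirg and Snhg10 were higher, Dleu2 and the Etfb variant lower, and Mir22hg and D7Ertd143e were not called in the average.

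Dleu2 is the host of the microRNAs miR-15a and miR-16-1, which restrain the cell cycle. It read 1.05 and 0.95, 1.18 and 1.13, and 1.03 and 0.80 on control arrays and -0.57 and -0.22, -0.14 and -0.26, and 0.01 and -0.16 on CDAHFD arrays. Every CDAHFD array was below every control array. The differences were -1.40, -1.36 and -0.99 (± 0.14; adjusted p = 6.43e-05, 5.27e-05 and 0.000351), and against later controls the 1-week value was -1.43. Trim13, a ubiquitin ligase gene overlapping Dleu2 on the other strand, differed by -0.14 ± 0.12 (adjusted p = 0.375). The 2 main mature sequences (RefSeq, GRCm38.p6, minus strand of chromosome 14) share the seed shown in capitals.
mmu-miR-15a-5p: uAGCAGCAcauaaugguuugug
mmu-miR-16-5p: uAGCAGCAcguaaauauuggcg
The microRNAs were not measured.

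Mir22hg, the host of miR-22, differed by -0.28 ± 0.11 (adjusted p = 0.0524), a value that passed under 10 of the other settings, including the replicate block (adjusted p = 0.0395) and the other 4 scalings. Tlcd2, its neighbour on the same strand, fell by 1.54 ± 0.08. Mirt2 differed by 0.79 ± 0.34 (adjusted p = 0.0801). Its CDAHFD arrays at 6 weeks read -4.85 and -2.64, and without the lower of them the averaged difference was 1.16 (adjusted p = 7.57e-05), and without the higher 0.42 (adjusted p = 0.0273).
The mature sequence carried by Mir22hg is shown for its seed.
mmu-miR-22-3p: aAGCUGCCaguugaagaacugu

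Of the small structured RNAs, the lowest was Snora47, an H/ACA snoRNA. It read -0.74 and -1.48, -0.99 and -1.81, and -2.04 and -2.28 on control arrays and -3.86 and -3.60, -3.35 and -3.81, and -5.09 and -3.87 on CDAHFD arrays. The groups did not overlap, and the difference was -2.38 ± 0.24 in the average (5.19-fold lower, adjusted p = 3.56e-05). The gene that overlaps it, Zbed3, was not measured. Snora74a fell by 0.55 ± 0.17 in the average (adjusted p = 0.0169). Rmrp, the RNA of the RNase MRP complex, was higher at 6 weeks (0.80 ± 0.21, adjusted p = 0.0144), and Rnu12, the U12 RNA of the minor spliceosome, was higher at 6 weeks (0.58 ± 0.14, adjusted p = 0.00967). Rnu12's averaged difference of 0.29 was 0.15 with median centring and 0.04 where all probes set the percentile, neither of them called. Under the latter no listed small structured RNA was called higher at 6 weeks. The list held 13 named genes and all symbols that begin with Snora, Snord or Scarna. Of its 4 members detected under a symbol, 1 was higher and 2 lower in the average. The listed names Rn45s and Rn18s were not in the RefSeq table, so probes known by accession only were not matched to them. Over the class of 9 probes 2 were higher and 5 lower, where 29.2% of all probes tested were higher and 26.7% lower.

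Among probes whose accession was not in the table, NR_003280 differed by -2.08 ± 0.39 (adjusted p = 0.00349), with controls from 3.96 to 5.98 and CDAHFD arrays from 0.74 to 4.33. The groups overlapped, and the call at 6 weeks (-2.55, adjusted p = 0.0269) was lost without any of control replicate 1, control replicate 2 or CDAHFD replicate 1 of that week. The 6-week call of NR_003280 was also lost after normexp (adjusted p = 0.0577) and without the detection filter (adjusted p = 0.063). NR_003278 fell by 1.32 ± 0.18 at 1 week and by 0.54 against later controls, and differed by 0.06 ± 0.18 at 6 weeks. NR_028584 fell at each week (-1.82, -1.21 and -1.01), by 0.98 at 1 week against later controls.

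Pseudogenes fell more often than they rose. With 1 probe a gene, 13 of 74 were higher and 27 lower in the average, with a median of -0.11, beside 29.2% of probes called higher and 26.7% lower. After quantile normalization the counts were 19 and 22.

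Gpr137b-ps rose at each week, and its parent gene rose alike. Gpr137b encodes a lysosomal membrane protein. The pseudogene's control values lay from -4.62 to -3.99, and its CDAHFD values from -1.83 to -0.14. They were lowest at 1 week (-1.42 and -1.83) and highest at 6 weeks (-0.14 and -0.42). The difference was 2.79, 3.29 and 3.81 (± 0.21; adjusted p = 9.07e-07 at 6 weeks), and a second probe gave 3.24, 3.57 and 4.28. Gpr137b differed by 2.58, 3.26 and 4.11, with an average of 3.32 ± 0.13 against 3.30 ± 0.12 for the pseudogene. Whether the pseudogene's probes also read parent RNA was not tested, so a rise of the pseudogene apart from the parent is not established. After normexp the 1-week value of the pseudogene was 1.61.

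Slfn10-ps, in the Schlafen cluster of interferon-inducible genes, rose by 1.55 ± 0.13 in the average, from control values of -6.31 to -5.86 to CDAHFD values of -4.90 to -4.39. Its neighbour Slfn8 rose by 1.70 ± 0.18. After normexp its calls were lost at 2 weeks (0.33, adjusted p = 0.323) and 6 weeks (0.57, adjusted p = 0.117). The pseudogene 9030619P08Rik, in the Ly6 region, rose by 1.37, 2.63 and 1.71 at the 3 weeks, and by 2.28 at 1 week against later controls. Its controls lay from -4.34 to -3.03 and its CDAHFD arrays from -2.67 to -1.37.

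Gm4956 had the largest averaged fall. It read 1.11 and 0.51, 0.68 and 0.91, and 1.21 and 1.03 on control arrays and -1.36 and -0.94, -1.32 and -0.84, and -2.54 and -2.28 on CDAHFD arrays. All CDAHFD values were below all control values and those of 6 weeks were lowest. The difference was -1.96, -1.87 and -3.53 (± 0.23; adjusted p = 2.93e-06 at 6 weeks). The nearest coding gene is Gsta3, a glutathione transferase abundant in liver, which fell by 0.73 ± 0.07 in the average. Gsta3 fell by 0.92 at 1 week and by 0.48 at 6 weeks, the opposite order.

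Serpina3h, a pseudogene of the serpin cluster of secreted protease inhibitors, fell at each week, by 1.74 at 1 week and 1.78 at 6 weeks. Its 1-week controls (-0.36 and -0.33) stood above later controls (-1.88 to -1.28), and against these the 1-week difference was -0.47 (adjusted p = 0.0861). The pseudogene 1700022A21Rik fell by 2.23 ± 0.29 at 1 week (1.26 against later controls), 1.26 and 1.16, while its neighbour Smarcd3 was higher by 0.55 ± 0.17. Among the cytochrome pseudogenes, Cyp2d13 differed by -0.06 ± 0.16 at 1 week and fell by 1.23 and 1.22 at 2 and 6 weeks. Against later controls it was lower at 1 week too (-0.68, adjusted p = 0.00373), and the neighbouring Cyp2d34 fell by 1.40 ± 0.11 in the average. Cyp2d37-ps was called higher at 1 week (3.32 ± 0.84, adjusted p = 0.0228), but its 1-week controls read -2.67 and 0.28 where all the other arrays read 1.23 to 2.19. Without the lower of them it was 1.85, with the arrays of 1 week alone it did not pass (adjusted p = 0.23), without either CDAHFD array of that week it did not pass (adjusted p = 0.0996 and 0.0838), and against later controls it was 0.15.

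**Figure D4:**
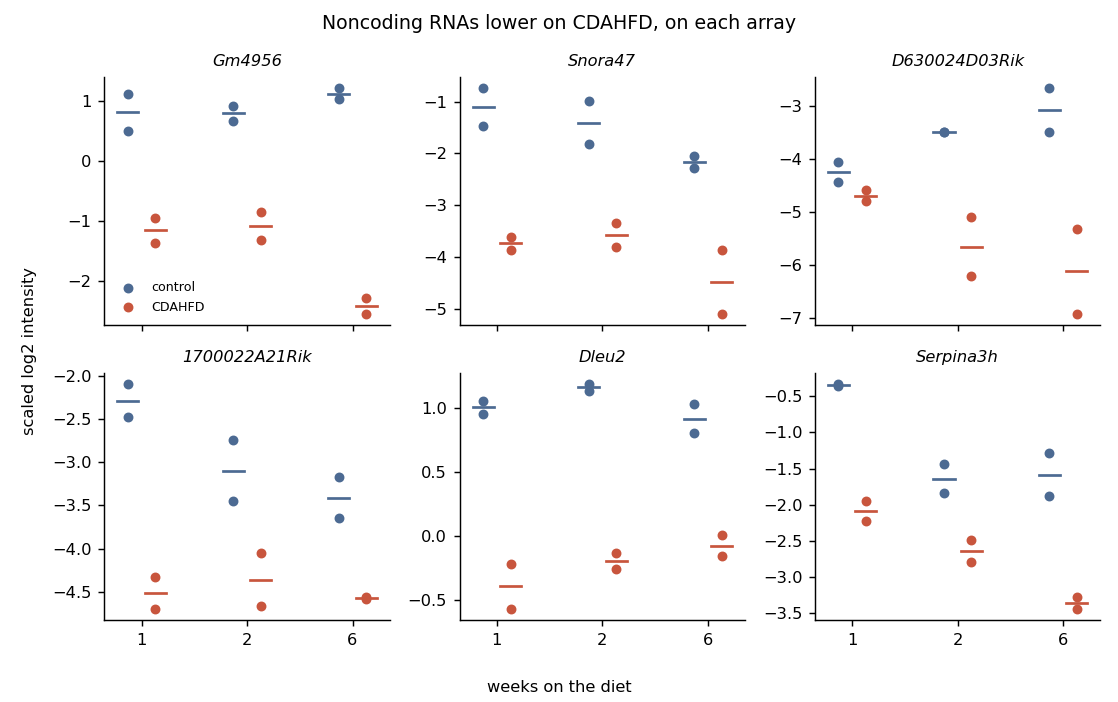
Scaled log2 intensity of 6 noncoding RNAs that were lower on CDAHFD, on each array (points) with the mean of each pair (bars); blue is control and red CDAHFD, and each panel has its own vertical scale. Gm4956 is lowest on CDAHFD at 6 weeks, and D630024D03Rik separates little at 1 week (-0.44, and -1.41 against later controls) and widely at 6 weeks (-3.04).

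Clone-named RNAs were called lower more often than higher. With 1 probe a gene, 31 of 166 (18.7%) were higher and 75 (45.2%) lower in the average, with a median of -0.20, where 29.2% and 26.7% of all probes tested were. The largest rise was of B930025P03Rik, near the insulin receptor substrate gene Irs2. It read -6.08 and -6.02, -6.05 and -4.03, and -3.79 and -4.17 on control arrays and -2.14 and -1.64, -3.32 and -3.02, and -1.25 and -2.80 on CDAHFD arrays. The groups did not overlap, though control values spread from -6.08 to -3.79, and the difference was 2.66 ± 0.39 in the average (adjusted p = 0.000702; 1.35 after normexp). Irs2 differed by -0.49 ± 0.30 (adjusted p = 0.196). With Lncpint, which differed by -0.45 ± 0.16 (adjusted p = 0.0371, a call that 7 of the 12 fits without an array lost), and Mir22hg it makes up the 3 genes detected of 27 listed as liver or metabolic long noncoding RNAs. A second detected Lncpint probe differed by -0.365 ± 0.149 and did not pass (adjusted p = 0.0582). 4931408D14Rik, next to the insulin-degrading enzyme gene Ide, rose by 1.39, 1.84 and 1.78, while Ide fell by 0.32 ± 0.07.

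Several clones fell at every week. Gm4013 fell by 1.34, 2.21 and 2.15, Gm11240 by 1.11, 1.49 and 1.55, and 9330175M20Rik by 1.26, 1.69 and 1.68. On CDAHFD their levels differed between weeks (adjusted p = 0.0293, 0.0195 and 0.0389), while the change of the diet difference did not pass (adjusted p = 0.169, 0.429 and 0.669). Against later controls the 1-week fall of Gm11240 was 0.64 (adjusted p = 0.00518), and 9330175M20Rik was not called (-0.49, adjusted p = 0.114). 9330175M20Rik overlaps Cavin2, a gene of endothelial and adipose caveolae, which differed by -0.08 ± 0.07 (adjusted p = 0.365). D630024D03Rik read -4.06 and -4.43, -3.48 and -3.49, and -2.66 and -3.48 on control arrays. On CDAHFD arrays it read -4.59 and -4.78, -6.21 and -5.10, and -6.92 and -5.31. Its difference was -0.44 ± 0.52 at 1 week (adjusted p = 0.535; -1.41 and called against later controls, adjusted p = 0.0455), -2.17 at 2 weeks and -3.04 at 6 weeks (adjusted p = 0.00188), with values of -1.39 and -1.71 after normexp. The 2-week call was lost without control replicate 1, control replicate 2 or CDAHFD replicate 1 of that week. Its neighbour Cpeb4, a regulator of messenger RNA translation, fell by 1.01 ± 0.14. A530006G24Rik, next to Foxa2, a transcription factor of hepatocytes, differed by -0.27 (-0.54 against later controls, not called), -1.69 and -1.46, and Foxa2 fell by 0.66 ± 0.20. 4932412D23Rik, within Zbtb20, fell by 1.81 ± 0.29 at 1 week but by 0.30 against later controls (adjusted p = 0.424).

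Antisense and opposite-strand transcripts (12 genes) were higher in 2 (16.7%) and lower in 5 (41.7%) in the average, with a median of -0.18, beside 29.2% and 26.7% of all probes tested. All 8 noncoding variants of coding genes read at or below 0.04 in the average, and 5 (62.5%) were lower. Of these, Bcor differed by -0.71 ± 0.11, Etfb by -0.54 ± 0.09 and Zfp672 by -0.51 ± 0.08. Probes of the coding transcripts of these genes were also read. For Etfb, a subunit of the electron transfer flavoprotein of fatty acid oxidation, the coding probes fell by 0.58 ± 0.09 and 0.48 ± 0.11. For Bcor, a transcriptional corepressor, a coding probe differed by 0.13 ± 0.11 (adjusted p = 0.326), and for Zfp672 the coding probe differed by 0.26 ± 0.10 (adjusted p = 0.0473).

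Where both were called, coding partners had the same direction in most pairs and the opposite one in many. How often unrelated genes would do so was not tested, and 55.9% of all probes tested were called in the average. Of 106 pairs of a noncoding RNA and a coding gene that overlap by the RefSeq table, 72 had a partner above background on all arrays, and for 30 both differed in the average: 17 in the same direction and 13 in the opposite one. For genes with only a nearest neighbour, 101 pairs could be read, and of 45 in which both differed 27 had the same direction and 18 the opposite. Of 22 readable pairs that share a name stem, 5 of 6 with both called had the same direction. The exception, named after its values were seen, is Man2c1os. It lay from -3.68 to -3.16 on control and from -5.06 to -4.47 on CDAHFD arrays, a difference of -1.27, while Man2c1, a cytosolic mannosidase gene, rose by 0.24 ± 0.06. The probe's strand was not checked against the genome.

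**Figure D5:**
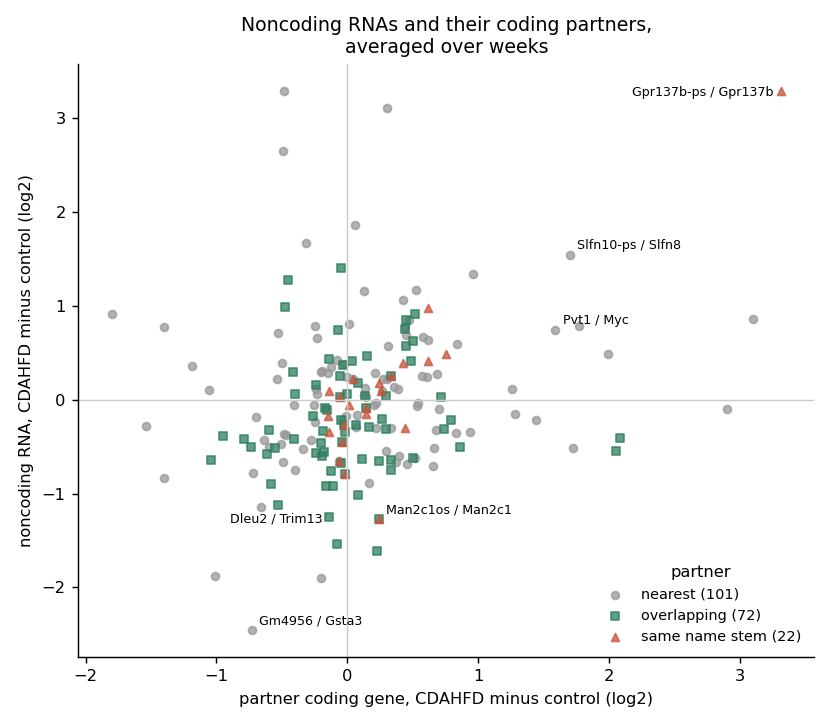
Averaged difference between CDAHFD and control (log2) of each noncoding RNA (vertical) against that of its coding partner (horizontal), for partners above background on all 12 arrays; markers show nearest, overlapping and same-name partners. Gpr137b-ps and Gpr137b lie together at 3.30 and 3.32, Slfn10-ps and Slfn8 both rise, and Man2c1os falls by 1.27 where Man2c1 rises by 0.24.

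The diet difference itself changed between weeks for 15 probes (4.76%, where 2.16% of all probes tested did so), and 79 had an unadjusted p under 0.05. The count fell to 2 without either CDAHFD array of 1 week and to 3 without trend and robust estimation. In controls, 66 probes differed between weeks (13.5% of all probes tested did so), and in CDAHFD livers 16 (5.08%, against 2.17%). Pisd-ps3 had the clearest change. Its controls read -4.34 and -4.66 at 1 week and -2.38 to -2.17 later, and all CDAHFD arrays read -2.13 to -1.99. Its difference was 2.45 ± 0.14 at 1 week, 0.11 at 2 weeks and 0.37 at 6 weeks (adjusted p = 0.00124 for the change), and 0.23 at 1 week against later controls. The parent gene Pisd, the mitochondrial phosphatidylserine decarboxylase, had a like order of values, with 0.95, 0.37 and 0.52. Slc2a4rg-ps had differences of 2.37 (0.22 against later controls, adjusted p = 0.439), 0.18 and 0.43, from controls of -3.45 and -3.70 at 1 week and -1.91 to -1.17 later.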

How the data were processed

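Per the file headers, the authors deposited the linear spot intensity of 1-colour arrays after background subtraction and spatial detrending within each array, with no normalization between arrays. The headers name Agilent Feature Extraction 11.5.1.1 and the submitters' processing notes 10.7. Labelling used 150 ng of total RNA, per the labels' protocols. Each array held 59305 gene spots for 55681 probes, none saturated, and 40.3% to 49.6% of probes were well above background. Precision is limited by having 2 arrays a group.

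Control spots and outlier spots were left out (54 values missing), spots of a probe were averaged, and from the log2 intensity each array's 75th percentile was subtracted, taken over the 20124 probes above background on all arrays. The fit used limma 3.58.1 (R 4.3.3) with trend and robust estimation, 6 group means and 6 residual degrees of freedom, over 27028 probes, with Benjamini-Hochberg adjustment. A gene with several detected probes was named by the one with the highest mean. Named were the 8 called RNAs with the largest difference in each direction at each week and in the average, the 8 with the clearest change between weeks, the 4 with the clearest change within controls, detected members of the gene lists (microRNA hosts, snoRNA hosts, nuclear and imprinted, small structured, liver and metabolic RNAs) and partner genes. The members and lists were chosen with earlier results of these data known.

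Alternatives were 4 other scalings, 2 filters, 1 probe a gene, masking of dim blocks on 1-week control replicate 1 (1405 probes), estimation settings, each week alone, later controls, a 2-fold threshold, a replicate block and leaving out each array. Normexp (offset 50) used the median spot signal. On simulated data with 200 of 27028 probes changed, the averaged diet comparison recovered 77% of 2-fold and 93% of 4-fold changes. In the real data 15108 probes were called in the average, so these shares do not give the recovery there. Names, neighbours, biotypes and sequences came from RefSeq (GRCm38.p6). The array was designed on another build, so the table's coordinates were used only for neighbours and for the printed sequences. Of the 315 probes, 294 had a symbol by accession and 21 did not.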

Additional observations from a re-analysis of the deposited data

Results flagged for a closer look

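The diet difference of 11 named RNAs changed between weeks by the interaction test in limma, and these values are given without an explanation. Pisd-ps3 (adjusted p = 0.00124), Slc2a4rg-ps (adjusted p = 0.0114), Snhg16 (adjusted p = 0.0303) and Neat1 (adjusted p = 0.0455) had their largest rise at 1 week, when their controls were lowest. Gm4956 (adjusted p = 0.0379) and A830052D11Rik (adjusted p = 0.0445) had their largest fall at 6 weeks, A830052D11Rik with -1.20, -1.26 and -2.38. Cyp2d13 (adjusted p = 0.03) and 4930581F22Rik (adjusted p = 0.0369) were lower at 2 and 6 weeks but not called at 1 week. Against later controls Cyp2d13 was called lower at 1 week (-0.68, adjusted p = 0.00373). For 4930581F22Rik the differences were 0.31 (-0.21 against later controls), -0.92 and -0.98. The difference of 2210039B01Rik went from 1.17 at 1 week to -0.87 at 6 weeks (adjusted p = 0.0376), and against later controls the 1-week value was -0.04. NR_003278 was called lower at 1 week and not at 2 or 6 weeks (adjusted p = 0.0389). Fbxl12os differed by -0.24 (0.91 against later controls, adjusted p = 0.000342), 0.56 and 0.85 (adjusted p = 0.0407), with controls of 0.32 and 0.32 at 1 week, -0.56 and -0.77 at 2 weeks and -0.94 and -1.06 at 6 weeks. The number of probes with such a change was between 2 and 21 when single arrays were left out. Groups of 2 arrays are too small for a test of outlying samples.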

How the results depend on the processing

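A tally took each named RNA in the diet comparisons that named it, or in the average where only a list or a week test did. Under other settings 2172 of these values kept their direction and their side of the threshold, 70 lost the call, 25 gained it and 3 changed sign. The 3 are averages after normexp: Snhg7 at -0.031, Snhg10 at -0.10 and Firre at -0.071, none of them called. Other 1-week values lie outside this tally. Against later controls those of 2210039B01Rik, Snhg7, Snhg10, Fbxl12os, 4930581F22Rik, Rnu12, Rmrp and Peg13 changed sign. Rnu12 went from -0.11 to 0.55 and gained a call (adjusted p = 0.00664), as did Fbxl12os, Snhg6, Cyp2d13 and D630024D03Rik. Further calls were lost, among them Dancr and Malat1. Requiring a 2-fold difference lowered the counts of called probes to 60, 33 and 36 at 1, 2 and 6 weeks and to 38 in the average. With later controls the 1-week count was 81. The count with a change between weeks was 9 after quantile normalization and 3 without trend and robust estimation, that between weeks in controls was 39 after normexp, and that within CDAHFD was 6 without trend and robust estimation. When each array was left out in turn, the counts ranged from 92 to 156 at 1 week, 55 to 111 at 2 weeks, 61 to 109 at 6 weeks, 178 to 197 in the average, 2 to 21 for the change between weeks, 36 to 80 within controls and 0 to 21 within CDAHFD. At 1 week the low value came without CDAHFD replicate 1 (92). At 2 weeks it was 63 without control replicate 1, 55 without CDAHFD replicate 1 and 56 without CDAHFD replicate 2. At 6 weeks it was 61 and 64 without control replicates 1 and 2. The change between weeks gave 2 without either 1-week CDAHFD array, 4 without either 2-week CDAHFD array, and 4 and 7 without 6-week control replicates 1 and 2. Within controls it was 36 without 1-week control replicate 1, and within CDAHFD 2 and 0 without 1-week replicates 1 and 2 and 9 without either 2-week replicate. The causes were not tested beyond fewer samples entering these fits. Replicate numbers did not pair the arrays (correlations of deviations -0.11, 0.33 and 0.15 at the 3 weeks). With the replicate block the counts were 150, 107 and 100 at the 3 weeks, 202 in the average, 14 for the change between weeks, 72 within controls and 16 within CDAHFD. Signal near background limits the dim probes.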
